A study of Mus musculus with 20 samples.

Results

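The genes described here encode the proteins of the cytosolic ribosome. They were chosen by symbol: Rpl or Rps followed by a number with an optional a, x or l, plus Rplp0, Rplp1, Rplp2 and Rpsa, leaving out symbols ending in -ps, the Rps6k kinases and Gm pseudogenes. This gave 81 genes of 37620 in the count table, 49 for the large (60S) subunit and 32 for the small (40S) subunit. Rps4l and Rpl6l entered by symbol, although GENCODE vM21 annotates each as a processed pseudogene with a single exon. Fau and Rps3a1 also encode or contain ribosomal proteins but fall outside the rule, and Rpl24 was not analysed here. The cells were B220-enriched from mice of the C57BL/6 background (B220 is the B-cell form of the surface protein Ptprc). Of the 20 samples, 8 came from VavPBcl2/Myc lymphomas, 8 from VavPBcl2/vector lymphomas and 4 from normal spleen. The labels do not say how Myc or the vector was introduced. VavPBcl2 mice carry a Bcl2 transgene under the Vav promoter, which is active in blood cells of many lineages, so both lymphoma groups carry that transgene. Polyadenylated RNA was sequenced on Ion Proton instruments. Age is not labelled, and nothing ties a replicate to an animal of its own. The p-values therefore reflect differences among libraries, which may be technical.

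A ribosome reads messenger RNA on its small subunit and joins amino acids on its large subunit, and its proteins are made in matched amounts. In mammals nearly all messenger RNAs for these proteins start with a C inside a run of pyrimidines, the TOP motif, through which growth signals set how well they are translated. The transcription factor Myc is known to raise transcription of ribosomal RNA, of ribosome assembly factors and of many ribosomal protein genes, and it binds the sequence CACGTG, the E-box.

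Starts from RefSeq (GRCm38.p6) were used to show these features, 250 bases before to 50 after each start, for 59 of the 81 genes (71 starts). The submitters' processing notes name older builds, so these coordinates are used for the sequences only. A run of at least 8 pyrimidines covering the start was present at 17 of the 71 starts (23.9%), against 3.86% of all 32851 starts in the table. The search did not require a C at the start and took each listed start as exact. The 23.9% is therefore not a share of TOP motifs, and genes without the run may still carry one. The stretches below run from 14 bases before the start to 16 bases from it onward, 5′ to 3′, with the pyrimidine run in capitals. They were picked to span the log2 fold changes, Myc over vector, of the 17 genes, with Rps27 at 2.14 among the high ones and Rps6 at 1.00 among the low ones.
Rps18 (chr17:33955650-33955679, minus strand): acgtcacttccgCTCTCTCTTCCacaggag
Rps27 (chr3:90213633-90213662, minus strand): tttccgctttcgCTCCTTTCCggcggtgac
Rps10 (chr17:27635229-27635258, minus strand): cgccgcgcacgCCCCTTCCTTTCCagcctc
Rpl28 (chr7:4792951-4792980, plus strand): cgcctctcgtgTCTCTCTTTCCgtctccgg
Rpl38 (chr11:114668566-114668595, plus strand): gcggaagcctcgTTCTTTCCCCgttctctt
Rpl35 (chr2:39005116-39005145, minus strand): ggccccgCCCTTTCCTCTTTCTCTCgaacc
Rps6 (chr4:86857352-86857381, minus strand): agcggaagtcgggCCTCTTTTTCgtgacgc
Rps9 (chr7:3704027-3704056, plus strand): ccgccttgTCTCTCTTTgtctcgggcctga

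CACGTG, which reads the same on both strands, lay in 8 of the 71 windows (11.3%), against 7.15% of all windows of that length. The 6 genes were Rpl13a, Rpl14, Rpl19, Rpl23, Rpl34 and Rps19. CCGGAAG, a core sequence of ETS-family factors searched on both strands, lay in 36.6% of member windows and 8.86% of all windows. No binding was measured, so these are letters in a window and not sites. The first base of the motif, printed in capitals, lay 19 and 233 bases before the 2 listed starts of Rpl19, 3 bases before that of Rpl23 and 120 before 1 listed start of Rps19.
Rpl19 (chr11:98026679-98026708, plus strand): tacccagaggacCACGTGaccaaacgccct
Rpl23 (chr11:97782425-97782454, minus strand): acgaggtccggtCACGTGgctgagtgggcg
Rps19 (chr7:24884781-24884810, plus strand): tggagccgcggcCACGTGcgagcggcaggc
The 17 tested genes with the pyrimidine run had a median log2 fold change, Myc over vector, of 1.52, and the 41 tested genes with a listed start but no run had 1.38. The 6 genes with CACGTG had 1.35, and the 52 without it 1.49.

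Each sample held 28.7 to 56.3 M (mega) reads counted in genes. The run numbers in the labels place 7 samples in later sequencing runs (vector replicates 1 to 6 and normal replicate 1). The other 13 lie in earlier runs, namely all 8 Myc samples, vector replicates 7 and 8 and normal replicates 2 to 4. The Myc transcript had 313 to 1646 CPM (counts per library scaled to one common size) in Myc lymphomas, 48.3 to 226 in vector lymphomas, with 179 to 343 in normal spleen. Myc replicate 5 stood apart from its group: it had the lowest Myc level of the Myc lymphomas, 40.3% of its reads aligned to more than 1 place, and its TMM scaling factor of 0.68 was the lowest of all 20 samples. Results are therefore given with and without it.

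The ribosomal protein genes together held a larger share of the gene counts in Myc lymphomas than in the other groups. The lowest, median and highest shares were 6.16, 7.09 and 22.07% in Myc lymphomas, and 3.08, 3.72 and 6.22% in vector lymphomas. The 4 normal spleen samples had 3.81, 5.29, 5.61 and 4.70%. The 22.07% was Myc replicate 5, and the other 7 Myc samples averaged 7.19 ± 0.85% (SD), against 4.01 ± 1.04% in 8 vector lymphomas and 4.85 ± 0.79% in 4 normal samples. Vector replicate 7, from the earlier runs, at 6.22% lay above Myc replicate 6 at 6.16%, so Myc and vector overlapped in that 1 sample, while every Myc sample lay above every normal sample. With reads aligned to more than 1 place added to the denominator, the mean was 5.32% in Myc lymphomas (4.55% without replicate 5), 2.82% in vector lymphomas and 3.73% in normal spleen. On that measure Myc and normal overlapped, since Myc replicate 6 had 3.60% and normal replicates 2, 3 and 4 had 4.07, 4.21 and 3.69%. Myc and vector also overlapped more, since vector replicate 7 had 4.45% and Myc replicates 4, 6 and 8 had 4.39, 3.60 and 4.22%. With mitochondrially encoded genes left out of the gene counts, Myc lymphomas had 7.33 to 23.8% and vector lymphomas 3.11 to 6.80%. On that measure no Myc sample overlapped vector lymphomas or normal spleen (3.84 to 5.92%). The share is a description without a test. In these bulk samples, a change in cell make-up and a change in RNA per cell cannot be told apart.

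**Figure D1:**
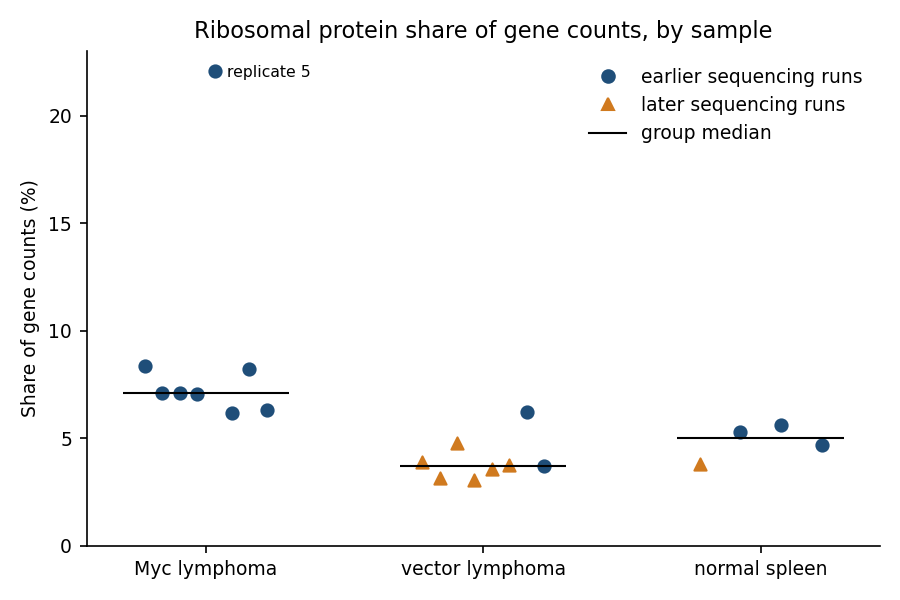
Percent of gene counts held by the 81 ribosomal protein genes (vertical axis) in each sample of 3 groups, with symbols for earlier and later sequencing runs and a line at the group median. Myc replicate 5 lies at 22.07% and the other 7 Myc samples between 6.16 and 8.35%.

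In Myc lymphomas against vector lymphomas, 73 of the 80 tested genes rose and 0 fell (edgeR quasi-likelihood F test, Benjamini-Hochberg adjusted p under 0.05 over 17824 genes, Myc n = 8, vector n = 8). Over all genes 26.6% rose and 21.9% fell. The median member log2 fold change was 1.51, beside 0.08 over all genes. Of the large-subunit genes 42 of 48 rose (median 1.48), and of the small-subunit genes 31 of 32 (median 1.60). Rpl10l had too few counts to be tested. In 9 of the 80 genes every Myc sample lay above every vector sample, among them Rplp0, Rpl8, Rpl10a, Rpl38, Rps26 and Rps28, against 5.12% of all genes. DESeq2 called 68 of 81 higher (25.4% of all genes).

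Without Myc replicate 5 the count was 61 of 79, the median 0.96, and the background of rising genes 25.6%. The same 9 genes remained free of overlap, against 6.14% of all genes. Within the earlier runs 12 genes were free of overlap, those 9 and Rpl13, Rps27l and Rpsa, against 9.75% of all genes. Myc lymphomas were all sequenced in the earlier runs and 6 of 8 vector lymphomas in the later ones. With a term for the run set, 8 of 80 genes rose, a share close to the 9.20% of all genes that rose. Among the 8 were Rplp0, Rpl10a, Rpl38, Rps20, Rps26 and Rps28. The median log2 fold change of the members was 1.05, beside 0.05 over all genes. Within the earlier runs, with only vector replicates 7 and 8 to compare, 0 of 81 members were called by edgeR with Myc replicate 5 in the fit (2.97% of all genes rose), and 9 had an unadjusted p under 0.05. DESeq2 was not run on that subset. Leaving Myc replicate 5 out, 7 of 80 were called, also near the share of all genes, 6.57%. Among the 7 were Rplp0, Rpl10a, Rps2, Rps26 and Rpsa. The median log2 fold change of the members was 0.45, beside 0.03 over all genes. Among the 5 genes that rose in each of 5 fits (all samples, DESeq2, without Myc replicate 5, the earlier runs without it, and the run term) were Rplp0, Rps26 and Rps27l. The share of all genes that rose in each of the 5 fits was not counted, so this number has no background to be read against.

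**Figure D2:**
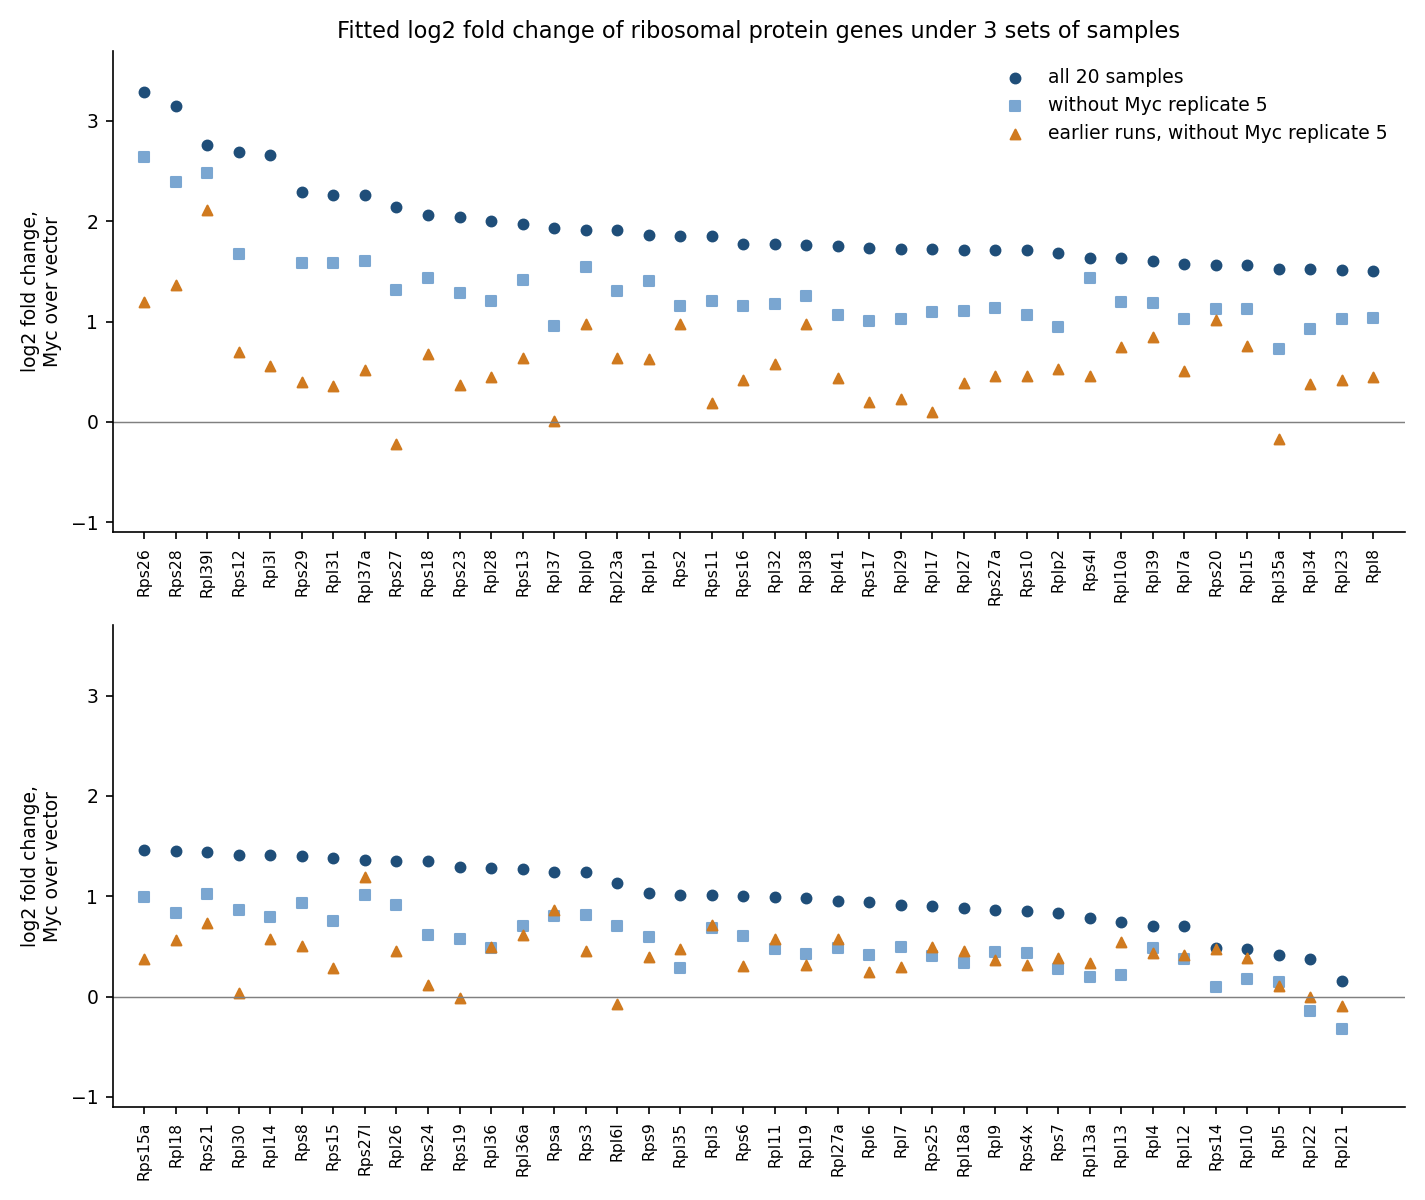
Fitted log2 fold change, Myc over vector (vertical axis), of 79 of the 80 tested ribosomal protein genes, ordered by the fit of all 20 samples, with the fits that leave out Myc replicate 5 and that use the earlier runs without it. The median is 1.51 over 80 genes with all samples, 0.96 over 79 genes without Myc replicate 5 and 0.45 over 80 genes in the earlier runs without it.

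Transcripts of the stalk proteins Rplp0, Rplp1 and Rplp2, which recruit elongation factors to the large subunit, rose over vector, as did most members. Rplp0, the scaffold of the stalk, had 3388, 4111 and 13871 CPM in Myc lymphomas (lowest, median, highest) and 1019, 1187 and 2471 CPM in vector lymphomas. Normal spleen had 1289, 1880, 2245 and 1907 CPM. No Myc sample overlapped either group, with a log2 fold change over vector of 1.92 ± 0.30 (SE, adjusted p = 3.8e-05 by edgeR). Within the earlier runs without Myc replicate 5 it was 0.97 ± 0.24 (adjusted p = 0.016). Rplp1 rose by 1.86 and Rplp2 by 1.69 on the log2 scale. In that restricted set Rplp1 had a log2 fold change of 0.62 and Rplp2 of 0.53, with adjusted p = 0.14 and 0.12, so neither was called there.

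Rps26 and Rps28, proteins near the messenger RNA exit site of the small subunit, had the 2 highest fold changes over vector. Rps26, whose human gene is mutated in Diamond-Blackfan anaemia, had 647, 1039 and 5208 CPM in Myc lymphomas and 48.02, 72.2 and 513 CPM in vector lymphomas. Normal spleen had 71.5, 285, 280 and 343 CPM. Vector replicates 7 and 8, at 513 and 302 CPM, stood above the 6 later vector samples, which had at most 84.4 CPM. Its log2 fold change over vector was 3.29 ± 0.59 (adjusted p = 0.00017 by edgeR), and 1.20 ± 0.29 (adjusted p = 0.015) in the earlier runs without Myc replicate 5. Rps28 had 206, 275 and 2166 CPM in Myc lymphomas and 26.7, 44.2 and 175 CPM in vector lymphomas. Normal spleen had 39.6, 82.7, 74.6 and 101 CPM, so Rps28 too was separated from both groups. Over vector its log2 fold change was 3.15 with all samples and 1.36 in the restricted set (adjusted p = 0.076 by edgeR).

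Rpsa, a protein of the small subunit also known as the laminin receptor precursor, had 1642, 2202 and 8702 CPM in Myc lymphomas and 1026, 1258 and 1769 CPM in vector lymphomas. Normal spleen had 974, 1260, 1360 and 1018 CPM. Myc and vector overlapped slightly, at 1642 against 1769 CPM. Rpsa rose over vector by 1.24 on the log2 scale (adjusted p = 0.002 by edgeR).

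Rps27, a zinc-binding protein of the small subunit, differed in sign between sample sets. It had 687, 844 and 6245 CPM in Myc lymphomas and 96.9, 157 and 1578 CPM in vector lymphomas. Normal spleen had 148, 473, 430 and 553 CPM. The 6 later vector samples had at most 168 CPM and vector replicate 7 had 1578 CPM, above every Myc sample but replicate 5. Rps27 had a log2 fold change over vector of 2.14 ± 0.64 (adjusted p = 0.0091 by edgeR) with all samples and -0.22 ± 0.34 (adjusted p = 0.72) in the earlier runs without Myc replicate 5. Its paralog Rps27l, a target of p53 in human and mouse cells, was lower per length, at 176 ± 67.1 against 3428 ± 536 CPM per kilobase of coding sequence in the 7 Myc samples without replicate 5 (SD). Rps27l had 28.8, 41.1 and 142 CPM in Myc lymphomas and 15.4, 19.3 and 36.9 CPM in vector lymphomas. Normal spleen had 21.8, 17.7, 24.6 and 16.2 CPM, below every Myc sample. Its log2 fold change over vector was 1.36 ± 0.29 with all samples and 1.19 ± 0.36 in the restricted set (adjusted p = 0.00076 and 0.039 by edgeR).

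**Figure D3:**
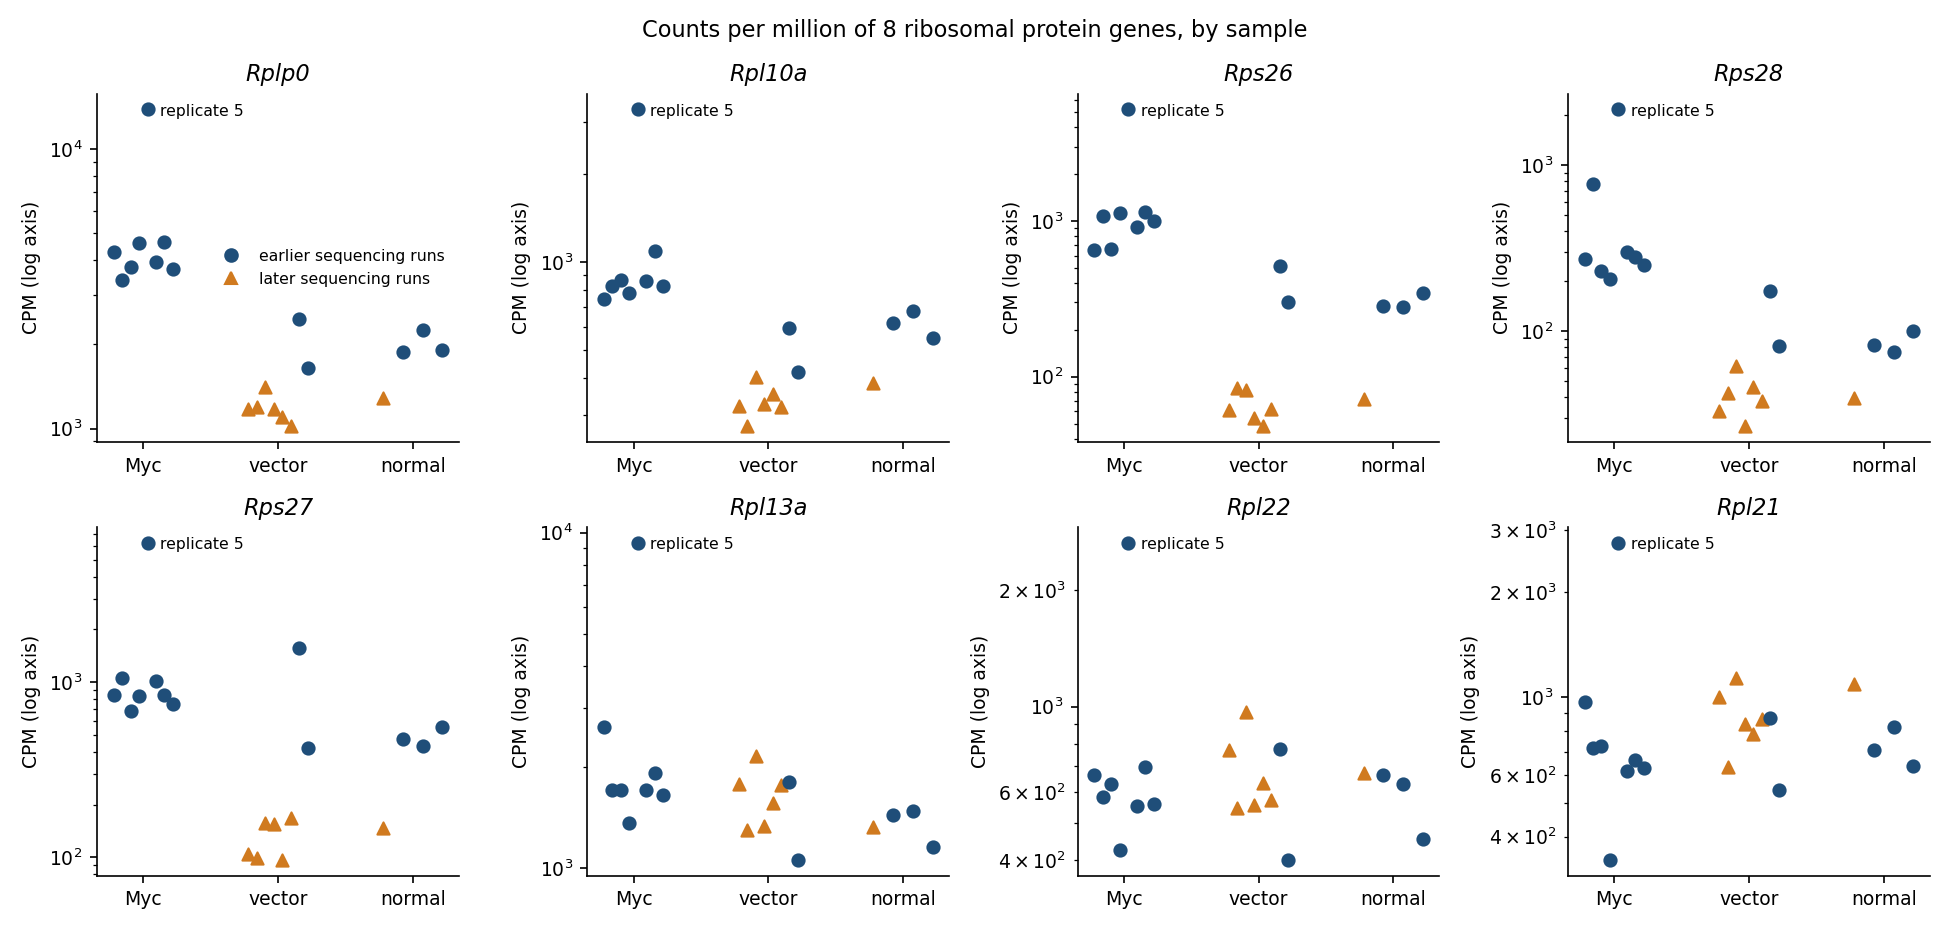
CPM of 8 ribosomal protein genes in each sample (log vertical axes) for 3 groups, with symbols for earlier and later sequencing runs. Rplp0, Rpl10a, Rps26 and Rps28 separate every Myc sample from both other groups, Rps27 is high in vector replicate 7 at 1578 CPM, and Rpl13a, Rpl22 and Rpl21 overlap between Myc and vector.

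The 7 tested genes that were not called between Myc and vector were all large-subunit genes but for Rps14. Their log2 fold changes were 0.15 for Rpl21, 0.37 for Rpl22, 0.41 for Rpl5, 0.47 for Rpl10, 0.48 for Rps14, 0.74 for Rpl13 and 0.79 for Rpl13a. Rpl22, a protein needed for alpha-beta T cell development in mice, had 426, 607 and 2650 CPM in Myc lymphomas and 402, 604 and 970 CPM in vector lymphomas. Normal spleen had 674, 666, 631 and 454 CPM, so the 3 groups overlapped throughout apart from Myc replicate 5. Without that sample its log2 fold change was -0.15 (adjusted p = 0.49 by edgeR), and that of Rpl21 was -0.32 (adjusted p = 0.18).

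Rpl5 and Rpl11 carry the 5S RNA into the large subunit and, when free, bind Mdm2, the ubiquitin ligase for p53. Rpl5 had 383, 423 and 1187 CPM in Myc lymphomas and 296, 365 and 533 CPM in vector lymphomas. Normal spleen had 469, 418, 373 and 348 CPM. The groups overlapped, and Rpl5 passed the test in neither comparison with Myc. Rpl11 rose over vector by 0.99 ± 0.34 on the log2 scale (adjusted p = 0.022 by edgeR), but without Myc replicate 5 its log2 fold change was 0.47 (adjusted p = 0.081). Mdm2 had 22.7 to 75.4 CPM in Myc lymphomas, 76.02 to 121 in vector lymphomas, with 71.8 to 97.4 in normal spleen.

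Rps27a is made as a fusion with ubiquitin and had 390, 566 and 2923 CPM in Myc lymphomas and 150, 235 and 574 CPM in vector lymphomas. Normal spleen had 269, 379, 377 and 317 CPM. It rose over vector by 1.71 ± 0.38 on the log2 scale (adjusted p = 0.001 by edgeR). In the earlier runs without Myc replicate 5 the log2 fold change of Rps27a was 0.46. Fau, a fusion with a ubiquitin-like protein, lies outside the rule, and its groups overlapped, with 464 to 3660 CPM in Myc lymphomas, 218 to 792 in vector lymphomas, with 204 to 543 in normal spleen.

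Of the X-linked members, Rps4x, Rpl39 and Rpl36a rose over vector and Rpl10 did not pass the test. Rps4x had 1065, 1291 and 4836 CPM in Myc lymphomas and 663, 981 and 1409 CPM in vector lymphomas, and normal spleen had 1080, 1069, 1126 and 827 CPM. The log2 fold change of Rps4x over vector was 0.85 with all samples and 0.43 without Myc replicate 5 (adjusted p = 0.019 and 0.041 by edgeR). Rpl39, which lines the exit tunnel of the nascent chain, had 237, 413 and 1569 CPM in Myc lymphomas and 124, 177 and 293 CPM in vector lymphomas. Normal spleen had 212, 304, 289 and 205.3 CPM. Myc and vector overlapped, and the log2 fold change was 1.60 ± 0.35 (adjusted p = 0.00085 by edgeR). It was 0.84 in the earlier runs without Myc replicate 5.

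Other members have known roles of their own. Rps6, the substrate of the S6 kinases, rose over vector by 1.00 on the log2 scale, and by 0.61 without Myc replicate 5. Rps19, the first gene found mutated in human Diamond-Blackfan anaemia, had 984.5, 1164 and 7068 CPM in Myc lymphomas and 475, 721 and 1257 CPM in vector lymphomas. Normal spleen had 389, 1221, 1889 and 1284 CPM, of which the low value is the later-run sample. Over vector, Rps19 had a log2 fold change of 1.29 (adjusted p = 0.015 by edgeR) with all samples, and -0.01 (adjusted p = 0.98) in the earlier runs without Myc replicate 5. Rps14, whose human gene is lost in the 5q deletion syndrome, had 1104, 1484 and 5702 CPM in Myc lymphomas and 879, 1502 and 2167 CPM in vector lymphomas. Normal spleen had 1166, 1458, 1756 and 962 CPM, and the medians of Rps14 in Myc and vector lymphomas lay close together. Rpl38, which in mice is needed for translation of Hox messenger RNAs, had 213, 274 and 1378 CPM in Myc lymphomas and 87.7, 125 and 203 CPM in vector lymphomas. Normal spleen had 116, 152, 179 and 129 CPM, and no Myc sample overlapped either group (log2 fold change over vector 1.76 ± 0.34, adjusted p = 0.00032 by edgeR). That fold change of Rpl38 was 0.97 in the earlier runs without Myc replicate 5.

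The tissue-restricted paralogs were close to absent. Rpl3l, known from heart and skeletal muscle, had 69 counts over the 8 Myc, 14 over the 8 vector and 26 over the 4 normal libraries. Rpl39l, known from testis, had 270, 54 and 68 counts in that order of groups, with 0 counts in 3 vector libraries. Rpl10l, the autosomal stand-in for Rpl10 in mouse testis, had 41 counts in Myc, 4 in vector and 0 in normal libraries. No fold change is given for Rpl10l, and those of Rpl3l and Rpl39l rest on few counts. Their widely expressed partners were far higher on the scale of CPM per kilobase of coding sequence: Rpl3 averaged 1164 ± 267 and Rpl3l 0.15 ± 0.10 in the 7 Myc samples without replicate 5 (SD).

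Levels of different genes were compared as CPM per kilobase of coding sequence. This scale leaves untranslated sequence out of the divisor, so it can overstate genes with a short coding sequence, such as Rpl41 with 75 bases. Without the divisor, Rpl41 had 348 to 582 CPM and Rplp0 3388 to 4667 CPM in the 7 Myc samples without replicate 5. In the 7 Myc samples without replicate 5, the means were 6538 for Rpl41, the shortest member, 4609 for Rplp1 and 4267 for Rplp0, while Rpl5 had 498. The SD of Rpl41 was 1102, that of Rplp1 1123 and that of Rplp0 502, so Rplp1 and Rplp0 did not differ beyond their spread. In the 8 vector samples Rps14 had 3358 ± 860, Rpl41 3142 ± 1383, Rpl13a 2623 ± 581 and Rplp0 1471 ± 501 (SD) on that scale. Of all CPM of the members, averaged over the 20 samples, the first 5 genes (Rpl4, Rplp0, Rps3, Rpl13a and Rpsa) held 19.2% and the first 20 held 51.6%.

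In Myc lymphomas against normal spleen, 52 of 80 genes rose and 0 fell (edgeR, Myc n = 8, normal n = 4), with a median log2 fold change of 1.34. Over all genes 21.5% rose and 17.9% fell, with a median of 0.08. Of the large-subunit genes 29 of 48 rose, and of the small-subunit genes 23 of 32. Every Myc sample lay above every normal sample for 36 of 80 genes, against 13.1% of all genes. That count was 36 without Myc replicate 5 (14.8% of all genes) and 37 within the earlier runs (14.1% of all genes). DESeq2 called 56 of 81 higher (22.1% of all genes). The largest log2 fold changes were 2.91 for Rps28, 2.59 for Rps26 and 2.56 for Rps12. Rplp0 rose by 1.53 on that scale, while Rps19 at 0.66 and Rpl12 at 0.37 did not pass the test. This comparison shares its Myc samples with the one above.

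Without Myc replicate 5, 40 of 79 genes rose over normal spleen (22.2% of all genes), at a median of 0.77. Within the earlier runs, with 3 normal samples, 5 of 81 were called with Myc replicate 5 in the fit (12.7% of all genes) and 33 of 80 without it (17.1% of all genes), at medians of 1.22 and 0.61. With the run set as a term 39 rose (20.6% of all genes) and Rps4l fell (16.3% of all genes). Without a scaling factor 34 rose and Rps4l fell (16.6% and 22.1% of all genes), and with only the 2 groups in the fit 34 rose (20.3% of all genes). In the fit over all samples, DESeq2, the fit without Myc replicate 5, the earlier runs without it and the run term, 30 genes rose in each, among them Rplp0, Rplp2, Rps2, Rps12, Rps26, Rps28 and Rpsa. Here too the share of all genes that rose in each of these fits was not counted. Leaving out normal replicate 1, the later-run sample, left 23 genes called (16.2% of all genes), at a median of 1.24. The count fell without any 1 of the other normal samples too. It was 34 without replicate 2 (3286 of 18125 genes rose). Without replicate 3 it was 37 (3160 of 18145), and without replicate 4 it was 31 (3083 of 18196).

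In vector lymphomas against normal spleen 0 genes rose and 1 fell (vector n = 8, normal n = 4, edgeR), against 7.46% and 3.36% of all genes, and 1 gene had an unadjusted p under 0.05. DESeq2 also called 0 up and 1 down (9.57% and 4.00% of all genes), with 3 at an unadjusted p under 0.05. The median log2 fold change was -0.16, and 24 of 80 genes had a positive value, beside a median of -0.03 over all genes. The sign of the member median changed with the run set. It was 0.12 within the earlier runs (60 of 81 positive) and 0.10 there without Myc replicate 5 (59 of 80). With a run term it was 0.08 (56 of 80 positive). The gene that fell was Rps4l, the autosomal pseudogene-annotated relative of Rps4x. Rps4l had 0.38, 0.64 and 2.42 CPM in vector lymphomas and 4.58, 5.23, 6.17 and 3.74 CPM in normal spleen, with no overlap (5.91% of all genes lay wholly below). Its log2 fold change was -2.47 ± 0.44 (adjusted p = 0.0012 by edgeR). Within the earlier runs, where vector replicates 7 and 8 alone stood for the vector group, 0 members fell with Myc replicate 5 in the fit (0.0432% of all genes, 1 member at an unadjusted p under 0.05). Without it 0 fell as well (0.393% of all genes, 3 members at an unadjusted p under 0.05), and Rps4l had -1.54 ± 0.62 (adjusted p = 0.24 by edgeR). Rps4x had a log2 fold change of -0.09 over all samples. In Myc lymphomas Rps4l had 0.87 to 5.33 CPM, with a log2 fold change over vector of 1.63 ± 0.39 (adjusted p = 0.0019 by edgeR). That fold change was 0.46 within the earlier runs without Myc replicate 5. Vector replicate 7, at 2.42 CPM, lay inside the Myc range.

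The sequencing run moved with the level of these genes inside the vector and normal groups. Among vector lymphomas, the earlier replicates 7 and 8 exceeded the 6 later ones by a median of 0.61 log2 CPM over the 80 genes (62 above 0), beside 0.05 over all genes. Among normal samples, the 3 earlier ones exceeded replicate 1 by a median of 0.51 (62 of 80 above 0), beside 0.00 over all genes. Within vector lymphomas the differences were largest for Rps27 (2.68) and Rps26 (2.62), and within normal spleen for Rps26 (2.08), Rps19 (1.89) and Rps27 (1.70). Across 77 genes, leaving out 3 with few counts, the 2 sets of differences had Pearson r = 0.86 and Spearman rho = 0.87, a description over genes of the same libraries in which the sets share no sample. Of the 7 genes not called between Myc and vector, all lay below 0 in the vector set, and Rpl21, Rpl13, Rpl22 and Rpl5 in both sets. Mitochondrially encoded genes moved with the run too, holding 0.39 to 1.05% of gene counts in later samples and 5.03 to 21.6% in earlier ones. Vector replicates 7 and 8 also carry a title prefix found on no other sample, so run and title prefix cannot be told apart in the vector group.

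**Figure D4:**
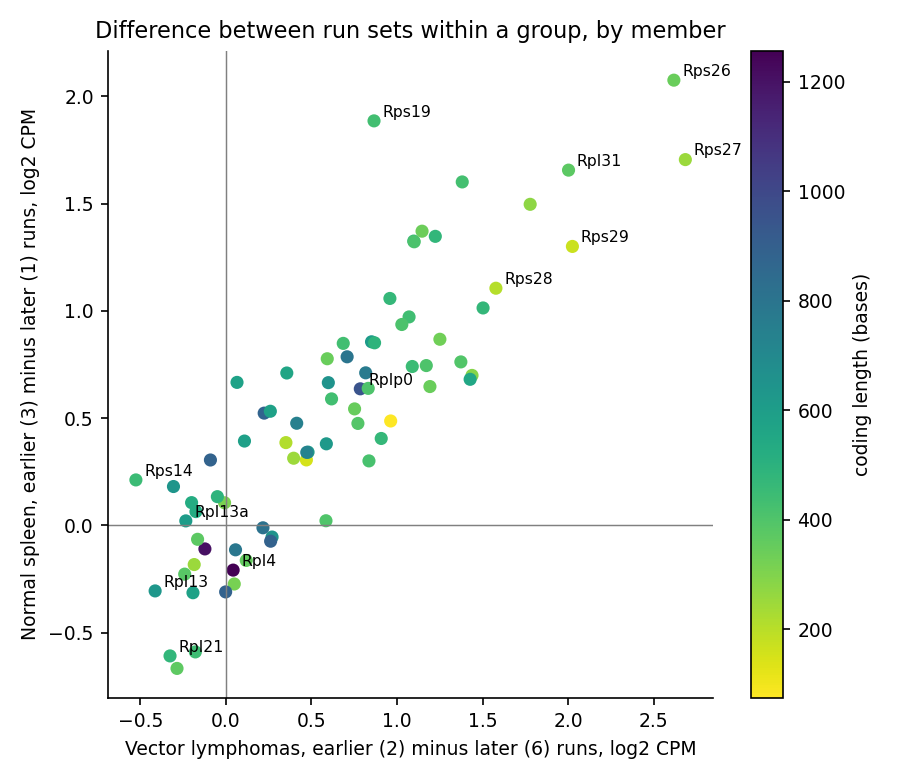
Difference in log2 CPM between earlier and later sequencing runs for each of 77 ribosomal protein genes, in vector lymphomas (horizontal axis, 2 against 6 samples) and in normal spleen (vertical axis, 3 against 1), coloured by coding length. Rps26 and Rps27 lie farthest to the upper right, and Rpl21 is among the lowest on both axes.

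Myc replicate 5 was higher than the mean of the other 7 Myc samples for all 80 genes, by 1.28 (Rpl4) to 3.26 (Rps12) in log2 CPM, with a median of 2.28 beside -0.04 over all genes. Coding length moved with that difference. Among protein-coding genes that are not members, the median was 1.57 for 274 genes under 300 bases, 1.15 for 300 to 600, 0.60 for 600 to 900, 0.08 for 900 to 1500, -0.64 for 1500 to 3000 and -1.46 for 3000 or more. Members had 2.55, 2.41 and 2.04 in the first 3 classes, above the other genes of the same class. The Myc over vector log2 fold change fell in the same order among genes that are not members, with 0.83, 0.52 and 0.23 in those classes. Members had 1.93, 1.51 and 1.24 there. Restricting to the earlier runs without Myc replicate 5 brought these class medians to 0.10, 0.10 and 0.05 for other genes and 0.73, 0.42 and 0.48 for members. The part of length in the differences of single members was not tested.

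**Figure D5:**
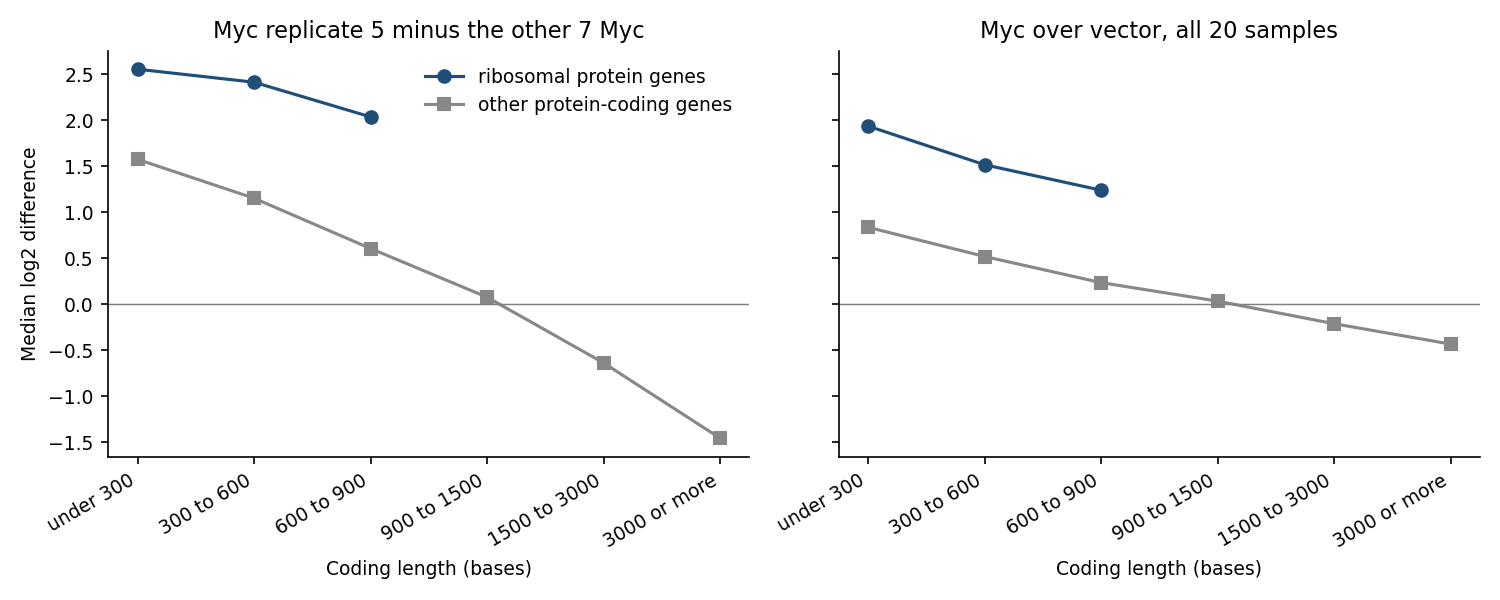
Median log2 difference (vertical axis) by class of coding length (horizontal axis) for ribosomal protein genes and for other protein-coding genes, for Myc replicate 5 against the other 7 Myc samples (left) and for Myc over vector with all 20 samples (right). Both sets of genes fall with length, and members lie above the other genes in the 3 classes that hold at least 11 of them.

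The order of the members within the family moved with the run set in vector lymphomas and in normal spleen. The share of each of 77 genes in the family's CPM was compared between pairs of samples by Spearman rho, as a description. The median rho was 0.93 between Myc samples without replicate 5 and the earlier vector samples, and 0.78 between those Myc samples and the later vector samples. Between earlier and later vector samples it was 0.85, and between earlier normal and earlier vector samples 0.96. Among normal samples it was 0.96 between the 3 earlier ones and 0.90 between them and the later replicate 1, which had 0.95 with the later vector samples. Between Myc samples without replicate 5 and earlier normal samples it was 0.89. Pairs within a group give the level to read these against. Among the 7 Myc samples without replicate 5 the median was 0.90 (lowest pair 0.78), and among the later vector samples 0.95. Rps26 held 0.77 to 1.59% of the family in Myc samples, 0.81 and 0.80% in vector replicates 7 and 8, and 0.13 to 0.26% in the 6 later vector samples. Rps14 went the other way, with 1.71 to 3.41% in Myc samples, 2.26 and 2.32% in the 2 earlier vector samples and 3.43 to 5.13% in the later ones.

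Rows named after a member with -ps, named as pseudogenes, can take reads of their parent. The table has 193 such rows for 56 of the 81 genes, and their counts came to 4.96 to 14.9% of the member counts in Myc, 6.64 to 17.1% in vector samples, with 8.98 to 18.03% in normal samples. The lower values in vector and normal samples were the later runs, at up to 9.09%. Values of single members with many copies, such as Rpl31 (11 rows) and Rpl21 (10 rows), are therefore uncertain.

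Other parts of the translation machinery were read beside the family. Of 35 ribosome assembly factors, 27 rose and 1 fell between Myc and vector (median log2 fold change 0.72), against 26.6% and 21.9% of all genes. Without Myc replicate 5 it was 29 and 1 (25.6% and 23.3% of all genes), and in the earlier runs without that sample 28 and 0 (median 0.89), against 6.57% and 8.34% of all genes. Nhp2 at 2.15, Wdr12 at 1.66 and Nop16 at 1.66 were among them, and Ubtf, an activator of RNA polymerase I, fell by 0.76 on the log2 scale but had -0.03 within the earlier runs (adjusted p = 0.96 by edgeR). In Myc replicate 5 the summed level of these factors was 4651 CPM, inside the 3779 to 6254 CPM of the other 7 Myc samples, while its ribosomal protein share was 22.07% against 6.16 to 8.35%. Of 41 mitochondrial ribosomal protein genes 35 rose over vector (median 0.78), and 7 were called in the earlier runs without Myc replicate 5 (median 0.42). Of 7 genes for elongation factors and related proteins 6 rose, and 2 were called in that restricted set. Of 15 other genes with TOP messenger RNAs 11 rose and 1 fell, and 2 were called in the restricted set. These counts stand beside the same shares of all genes, 26.6% rising with all samples and 6.57% in the restricted set.

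Markers of other blood cells were summed in each sample and counted between Myc and vector, where 26.6% of all genes rose and 21.9% fell. Of 8 B cell markers 7 fell in Myc against vector, and their summed level was 1774 to 5612 CPM in Myc lymphomas, 6140 to 9736 in vector lymphomas, with 6504 to 7586 in normal spleen. Neutrophil markers summed to 1600 to 16432 CPM in Myc lymphomas, 53.1 to 5748 in vector lymphomas, with 76.1 to 898 in normal spleen (4 of 7 rose over vector). Erythroid markers summed to 2971 to 52471 CPM in Myc lymphomas, 2070 to 10266 in vector lymphomas, with 116 to 1652 in normal spleen (2 of 6 rose). NK cell markers summed to 141 to 592 CPM in Myc lymphomas, 29.4 to 68.9 in vector lymphomas, with 144 to 230 in normal spleen (5 of 6 rose). Plasmacytoid dendritic cell markers summed to 216 to 1410 CPM in Myc lymphomas, 183 to 259 in vector lymphomas, with 266 to 316 in normal spleen (4 of 5 rose). T cell markers summed to 576 to 1203 CPM in Myc lymphomas, 472 to 870 in vector lymphomas, with 902 to 1048 in normal spleen (2 of 6 rose). Macrophage markers summed to 158 to 671 CPM in Myc lymphomas, 263 to 464 in vector lymphomas, with 251 to 562 in normal spleen (1 of 5 fell). The counts for erythroid, T cell and macrophage markers lie near those shares of all genes. Plasma cell markers summed to 662 to 3663 CPM in Myc lymphomas, 3989 to 7853 in vector lymphomas, with 354 to 599 in normal spleen (3 of 4 fell). None of the markers found was at 0 in any sample. Myc replicate 5 had the highest erythroid, NK, plasmacytoid and macrophage sums of the 20 samples, a neutrophil sum of 16195 CPM, and 113 CPM of Ptprc against 572 to 972 CPM in the other Myc samples. The part of these cells in the ribosomal protein levels was not tested.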

How the data were processed

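The authors deposited 1 table of raw counts per Ensembl gene with 1 column per sample; listed without a role in the submitters' processing notes are builds NCBIM37 and mm9 and the tools HTSeq, Picard 1.119 and BWA 0.7.5a. Polyadenylated RNA was fragmented with RNase III, per the labels' protocols. Lines for reads in no gene, unaligned or aligned to more than 1 place stayed out of library sizes; the last made up 14.3 to 40.3% of reads, which can lower counts of genes with retrocopies. Reads in no gene were 8.26 to 24.0% and unaligned reads 0.99 to 16.4%. Whether counting used strand is not stated.

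Symbols came from a table of gene names (32897 of 37620 rows matched), coding lengths and gene types from GENCODE vM21. After filterByExpr by group and TMM scaling, edgeR 4.0.16 was used in a single quasi-likelihood fit of 20 samples and 3 groups (17824 genes, two-sided, Benjamini-Hochberg). CPM use TMM-scaled libraries, and log2 CPM a prior count of 2. DESeq2 1.42.0 was an alternative. The common biological coefficient of variation was 0.47. The procedure was checked on simulated data.

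Named members were 24 chosen by role, the 3 large- and 3 small-subunit genes with the smallest p per comparison, the 3 highest and 3 lowest fold changes, members called against the majority and any untested; others named beside a count were chosen after their values were seen. Some genes that the rules name are not reported here. The members, lists and tests were chosen with earlier results of these data known. Run sets come from run numbers per instrument in the labels.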

Additional observations from a re-analysis of the deposited data

Results flagged for a closer look

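In 38 of 96 groups of named members and of the family share, 1 sample lay farther from the rest than Dixon's 95% limit; chance flags about 1 in 20. In 29 of them the sample was Myc replicate 5, the highest of 8 Myc lymphomas. It had a ribosomal protein share of 22.07%, and, in CPM, 13871 for Rplp0, 9325 for Rpl13a, 8702 for Rpsa, 7521 for Rps2, 7068 for Rps19, 6665 for Rps12, 6383 for Rplp1, 6373 for Rplp2 and 6245 for Rps27. It also had 5702 for Rps14, 5208 for Rps26, 4836 for Rps4x, 4321 for Rpl3, 3588 for Rpl12, 3497 for Rpl11, 3325 for Rpl10a, 3025 for Rps29, 2923 for Rps27a, 2918 for Rpl41, 2764 for Rpl21 and 2650 for Rpl22. Lower members stood apart as well, with 2166 CPM for Rps28, 1814 for Rps6, 1614 for Rpl10, 1569 for Rpl39, 1378 for Rpl38, 1187 for Rpl5 and 142.4 for Rps27l.

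Vector replicate 7, from the earlier runs, passed that limit for 7 members, as the highest of 8 vector lymphomas, with 2471 CPM for Rplp0, 1578 for Rps27, 639.6 for Rps12, 593.3 for Rpl10a, 574.2 for Rps27a, 174.6 for Rps28 and 2.421 for Rps4l. Vector replicate 8 passed it, also as the highest, for Rpl3l at 0.1819 CPM, and vector replicate 4 for Rps27l at 36.86 CPM.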

How the results depend on the processing

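Myc over vector, the number of members that rose was 0 within the earlier runs, 7 there without Myc replicate 5 (median log2 fold change 0.45) and 8 with a run term, against 73. The 7 and the 8, each of 80 members, lie near the 6.57% and 9.20% of all genes that rose in those fits. Myc over normal, it was 34 without a scaling factor, 34 with only the 2 groups in the fit, 5 within the earlier runs and 33 there without Myc replicate 5 (median 0.61), against 52, and 1 member fell without a scaling factor and 1 with a run term, Rps4l in both. Vector over normal, 0 fell in both earlier-run settings, against 1. The median log2 fold change there was 0.12 with Myc replicate 5 in the fit and 0.10 without it, and 0.08 with a run term, against -0.16. The share with reads aligned to more than 1 place in the denominator averaged 5.32% in Myc (4.55% without replicate 5), 2.82% in vector and 3.73% in normal samples. Myc over vector, all 80 members had a positive log2 fold change with all samples, beside 53.5% of all genes. Within the earlier runs without Myc replicate 5, 74 of 80 members were positive, beside 50.9% of all genes. The members that changed sign were Rps27 (-0.22), Rpl35a (-0.17), Rpl21 (-0.09), Rpl6l (-0.08), Rps19 (-0.01) and Rpl22 (-0.01). Leaving out 1 sample at a time gave 61 to 75 risen members and a median of 0.96 to 1.7, Myc over vector; 23 (without normal replicate 1) to 59 and 0.77 to 1.46, Myc over normal; and 1 to 2 fallen members (2 without vector replicate 8, the other being Rpl3l) and a median of -0.32 to -0.09, vector over normal. The mean share in Myc samples was 7.19 to 9.46%, in vector 3.7 to 4.15% and in normal 4.6 to 5.2%. The causes were not tested. RLE factors, TMM without these genes, no low-count filter, -ps rows added to their member and DESeq2 kept the numbers of members that rose and that fell within 1.5 times in each comparison. By DESeq2, 3 members had an unadjusted p under 0.05, vector over normal, against 1 by edgeR. With 2 earlier vector samples the restricted fits have little precision, so a call lost there does not show that a gene did not differ. No paired analysis was possible because the replicate numbers follow accession order and pair no samples.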
